A study of Mus musculus with 9 samples.

Results

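The Toll-like receptors of BV2 microglial cells, and the co-receptor CD14, are described here at the RNA level under oxygen–glucose deprivation (OGD) and with A-485, a small molecule that blocks the acetyltransferase activity of P300. The members were the genes named Tlr1, Tlr2, Tlr3, Tlr4, Tlr6, Tlr7, Tlr8, Tlr9, Tlr13 and Cd14, which are 10 of the 54532 genes in the expression table. They were picked by gene name, with earlier results of these data known. BV2 is an immortalized mouse microglial line. RNA was sequenced in 3 groups of 3 libraries: a control group in complete medium, an OGD group in low-glucose medium with less serum in a hypoxic chamber, and an OGD + A-485 group to which A-485 was added when OGD began. Glucose, oxygen and serum changed together between control and OGD and cannot be told apart, and no group received A-485 without OGD. The labels number the libraries but do not say that they came from separate cultures, so the p-values measure only the spread between these libraries.

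Toll-like receptors bind conserved microbial molecules and some molecules of damaged cells, and they signal through adaptors of the TIR family to NF-kB and the interferon regulatory factors. TLR2, paired with TLR1 or TLR6, binds lipoproteins at the cell surface, and TLR4 with MD-2 binds lipopolysaccharide there, which CD14 hands over. TLR3, TLR7, TLR8, TLR9 and TLR13 bind nucleic acids inside endosomes and reach them with the chaperone UNC93B1. Microglia, the resident macrophages of the brain, carry receptors of both classes.

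Each library held between 12593250 and 16091038 reads on genes. Of 12 microglia markers, 10 averaged 1 FPKM or more (fragments per kilobase of gene, scaled for sequencing depth) for control, 10 under OGD and 11 with A-485, with P2ry12, a marker of homeostatic microglia, at most at 0.298 FPKM. The summed level of these markers was 447–465 FPKM for control libraries, 582–601 FPKM under OGD and 1068–1088 FPKM with A-485, so that it moved with several of the results below, and its part in them was not tested. The summed level of 14 markers of other brain and connective tissue cells was 1.78–2.101 FPKM, 2.81–3.40 FPKM and 1.84–2.15 FPKM in the same order, and 7, 6 and 8 of them were listed at 0 in every library of the group. In bulk RNA, fewer cells of a type and less RNA per cell cannot be told apart.

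Most members have their coding sequence in a single large exon. More than 90% of it lay in 1 exon for 8 of the 10, and Tlr1, Tlr2 and Tlr6 had all of it in 1 exon. In the coordinates of the deposited table (GRCm38), Tlr1 (ENSMUSG00000044827) and Tlr6 (ENSMUSG00000051498) are neighbours on the minus strand of chromosome 5, at chr5:64924679-64933563 and chr5:64952031-64960097. Their transcripts share an identical run of 229 bases of coding sequence, at chr5:64925537-64925765 in Tlr1 and chr5:64953828-64954056 in Tlr6. It is shown because reads that lie inside it cannot be assigned to either gene by sequence (GENCODE M21 transcripts, 5′ to 3′):
Tlr1 and Tlr6 shared run: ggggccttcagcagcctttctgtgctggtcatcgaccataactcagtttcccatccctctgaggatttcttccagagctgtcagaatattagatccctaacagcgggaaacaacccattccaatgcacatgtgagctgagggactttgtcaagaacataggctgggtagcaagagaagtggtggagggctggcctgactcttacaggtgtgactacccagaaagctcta
Of all windows of 100 bases, 8.85% in Tlr1 and 7.24% in Tlr6 occurred in the other gene, and no other member shared any. The 259 windows shared in each gene are more than the run of 229 bases can hold. Further shared sequence therefore lies outside that run and is not shown. The levels of Tlr1 and Tlr6 are uncertain by the reads that all of their shared sequence could exchange.

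Tlr2 (ENSMUSG00000027995) lies at chr3:83836272-83841767 on the minus strand, and Tlr13 (ENSMUSG00000033777) at chrX:106143204-106160493 on the plus strand. These surface and endosomal receptors gave the largest absolute rises of the receptors with A-485, and their promoters are shown for that reason, at chr3:83841559-83841858 and chrX:106143025-106143324, from 250 bases before to 50 bases after the start site (RefSeq, GRCm38.p6). Capitals mark stretches that match the NF-kB motif in Tlr2 and the PU.1 core GAGGAA in Tlr13:
Tlr2 promoter: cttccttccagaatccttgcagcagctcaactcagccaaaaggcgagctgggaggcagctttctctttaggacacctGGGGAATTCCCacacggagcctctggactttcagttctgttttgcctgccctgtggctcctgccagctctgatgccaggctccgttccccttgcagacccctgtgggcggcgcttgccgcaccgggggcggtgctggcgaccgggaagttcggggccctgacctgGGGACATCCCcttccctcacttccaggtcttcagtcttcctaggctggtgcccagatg
Tlr13 promoter: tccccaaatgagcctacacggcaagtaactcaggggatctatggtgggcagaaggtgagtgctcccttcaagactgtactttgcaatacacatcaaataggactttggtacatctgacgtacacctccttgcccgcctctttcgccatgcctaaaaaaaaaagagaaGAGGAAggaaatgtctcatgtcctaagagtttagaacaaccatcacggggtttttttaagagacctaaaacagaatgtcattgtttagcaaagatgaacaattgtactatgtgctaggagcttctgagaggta
Promoters of 7 of the 10 members were searched. No entry was matched for Tlr4 and Tlr7, and Cd14 was left out of the search beforehand. Searching both strands, the NF-kB motif was in 2 of the 7, Tlr2 and Tlr3, against 4.51% of 32851 mouse promoters of the same length. Of its 4 matches in Tlr2, 3 overlap in the upstream stretch shown, on both strands, and 1 stands alone near the start site. The start sites used lie 159 bases inside the deposited gene for Tlr2, 71 for Tlr13 and 700 for Tlr3. The single Tlr2 match and the whole stretch searched for Tlr3 therefore lie inside the deposited genes. The core GAGGAA, bound by the myeloid factor PU.1, was in 4 of the 7 (Tlr1, Tlr8, Tlr9 and Tlr13) against 28.3% of promoters. The cores of the hypoxia response element, ACGTG and GCGTG, were in 0 of the 7, against 19.6% and 32.4% of promoters. A match describes the letters only.

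The remaining members lie at chr8:45395665-45411080 (Tlr3, ENSMUSG00000031639), chr4:66827584-66930284 (Tlr4, ENSMUSG00000039005), chrX:167304929-167330558 (Tlr7, ENSMUSG00000044583), chrX:167242696-167264329 (Tlr8, ENSMUSG00000040522), chr9:106222598-106226883 (Tlr9, ENSMUSG00000045322) and chr18:36725074-36726736 (Cd14, ENSMUSG00000051439). Tlr7 and Tlr8 are neighbours on the X chromosome.

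Cd14 was the most abundant member in all 3 groups, and the order of the receptors below it changed with treatment. In control, the order of mean FPKM was Cd14, Tlr7, Tlr13, Tlr2, Tlr9, Tlr4, Tlr1, Tlr6, Tlr3 and Tlr8, and the ranges of no 2 neighbours overlapped. In OGD it was Cd14, Tlr13, Tlr7, Tlr9, Tlr2, Tlr4, Tlr6, Tlr1, Tlr3 and Tlr8. There the ranges of Tlr7 and Tlr9, of Tlr4 and Tlr6, and of Tlr6 and Tlr1 overlapped, so that those neighbours did not differ beyond their spread. In OGD + A-485, Tlr2 stood next to Tlr13, followed by Tlr7, Tlr9, Tlr1, Tlr6, Tlr4, Tlr3 and Tlr8, and the ranges of Tlr6 and Tlr4 overlapped. Tlr7, the receptor for single-stranded RNA, led the receptors in control and came behind Tlr13 in OGD and behind Tlr13 and Tlr2 in OGD + A-485.

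**Figure D1:**
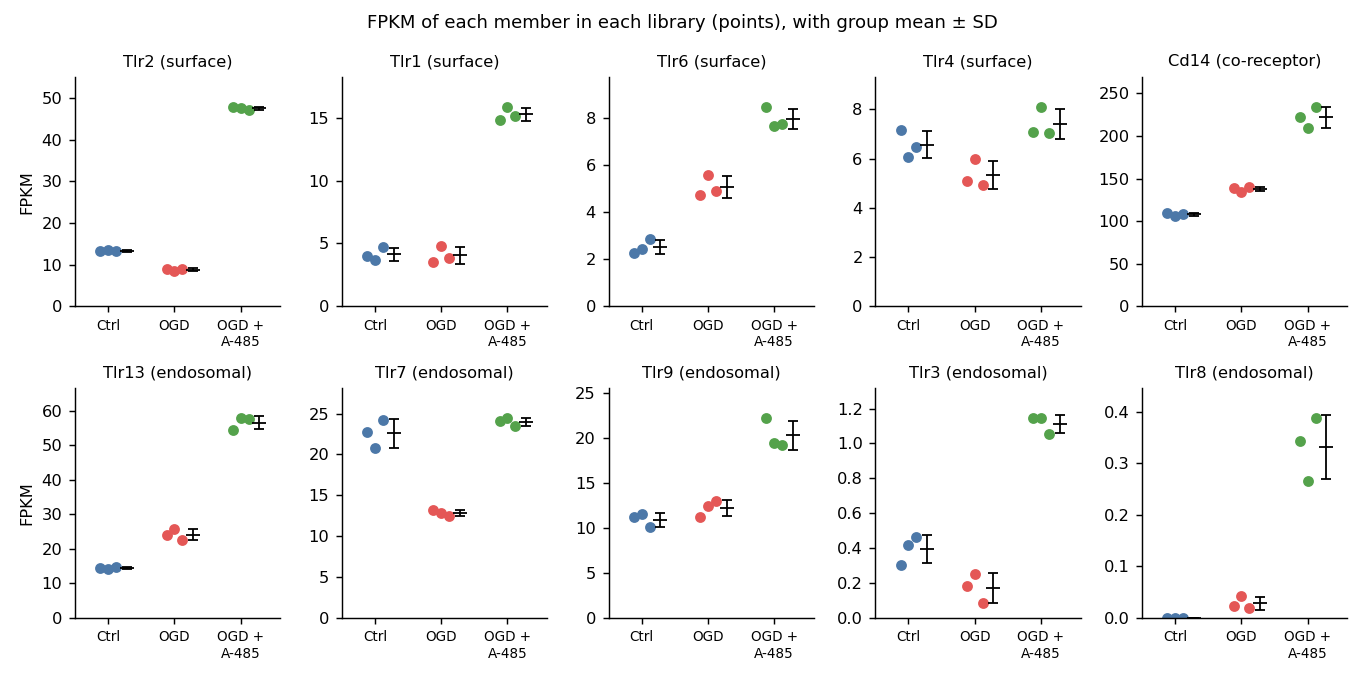
FPKM of each member in the 9 libraries (points) with the mean and SD of each group, on axes that start at 0 and differ between panels. In all 10 panels the 3 OGD + A-485 libraries lie above the 3 OGD libraries, whereas OGD libraries lie above, below or among the control libraries depending on the gene. The share of all genes that separate in this way is not given.

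To examine what OGD did to the receptors, the OGD libraries were compared with control. The members did not move in 1 direction under OGD: Tlr6 and Tlr13 rose, Tlr2 and Tlr7 fell, and the other 5 members tested were not called. Calls required p under 0.01 before adjustment together with a log2 fold change beyond ±0.5. Of the 9 members tested, 2 were called higher (22.2%) against 11.2% of the 16123 genes tested, and 2 lower (22.2%) against 9.81% of them. Counts this small do not set the members apart from all genes. The median log2 fold change of the 9 was -0.03, beside 0.01 for all genes. Tlr8 was not tested because its mean stayed under 0.2 FPKM. With 3 libraries against 3, a two-sided exact permutation test of a single gene cannot go below p = 0.1.

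Among the surface receptors, OGD changed the TLR2 subunits in opposite directions. Tlr2, the shared subunit of the lipoprotein receptors, was at 13.3, 13.6 and 13.2 FPKM in control and 8.99, 8.44 and 9.08 FPKM in OGD. All OGD libraries were below all control libraries, and Tlr2 fell by 0.59 on the log2 scale (SE 0.04, limma adjusted p = 6.12e-06). Tlr6, which pairs with TLR2 for diacyl lipoproteins, was at 2.25, 2.43 and 2.85 FPKM in control and 4.72, 5.56 and 4.88 FPKM in OGD. Its groups did not overlap either, and its log2 fold change was 0.99 (SE 0.10, adjusted p = 6.62e-05). Tlr1, which pairs with TLR2 for triacyl lipoproteins, was at 4.005, 3.71 and 4.69 FPKM in control and 3.55, 4.82 and 3.85 FPKM in OGD. The groups of Tlr1 overlapped, with a log2 fold change of -0.03 (SE 0.12, adjusted p = 0.881). Tlr4 had a log2 fold change of -0.30 (SE 0.10, adjusted p = 0.0337), under the fold required for a call, with a range of 6.06–7.17 FPKM in control and 4.94–5.97 FPKM in OGD.

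Cd14 showed a small difference with little spread. It was at 109.7, 105.9 and 108.6 FPKM in control and 139.1, 134.7 and 139.7 FPKM in OGD. The 3 OGD libraries were all above the control libraries, with a log2 fold change of 0.35 (SE 0.04, adjusted p = 0.000239) that was below the fold required for a call. The level of Cd14 relative to Tlr4 was 16.5 ± 1.11 in control (SD, n = 3) and 26.1 ± 3.07 in OGD. This ratio and those given further on were picked once their values were known and carry no test.

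Among the endosomal receptors, Tlr13 and Tlr7 exchanged places under OGD. Tlr13, the mouse receptor for bacterial ribosomal RNA, was at 14.4, 14.1 and 14.6 FPKM in control and 23.8, 25.8 and 22.5 FPKM in OGD. It rose by 0.74 on the log2 scale (SE 0.05, adjusted p = 9.00e-06). Tlr7 was at 22.8, 20.8 and 24.3 FPKM in control and 13.2, 12.8 and 12.5 FPKM in OGD. It fell by 0.81 on the log2 scale (SE 0.06, adjusted p = 8.65e-06), and neither gene had overlapping groups. The ratio of Tlr13 to Tlr7 was 0.638 in control and 1.87 in OGD. Tlr9, the receptor for unmethylated CpG DNA, had a log2 fold change of 0.16 (SE 0.08, adjusted p = 0.144) with overlapping groups.

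The scarce endosomal receptors gave few reads in these groups. Tlr3, which binds double-stranded RNA and alone signals without MyD88, was at 0.302–0.463 FPKM in control (21–39 reads) and 0.0819–0.251 FPKM in OGD (6–17 reads). Its groups did not overlap, but its log2 fold change of -0.90 (SE 0.29, adjusted p = 0.0321) had an unadjusted p of 0.0132 and was not called. A fold change on the log2(FPKM + 0.1) scale understates the change of a gene this low. Tlr8 had 0 reads in every control library and 4 reads over the 3 OGD libraries. Both groups are at or under the floor of 3 reads per library, so no fold is given.

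To examine what A-485 did during OGD, the OGD + A-485 libraries were compared with the OGD libraries. The receptors moved in 1 direction here: 8 of the 9 members tested were called higher, against 12.2% of all genes tested, and 0 were called lower, against 13.4%. The median log2 fold change of the members was 0.89, beside 0.01 for all genes. Tlr2, Tlr3 and Tlr1 had the largest log2 fold changes and Tlr4 the smallest. Every OGD + A-485 library exceeded every OGD library for all 10 members, Tlr8 included. The share of all genes that separate in this way is not given. Of the 16123 genes tested, 8036 had a limma adjusted p under 0.05 in this comparison, in either direction. This comparison shares the OGD libraries with the previous one, so a member that was low in OGD enters both.

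**Figure D2:**
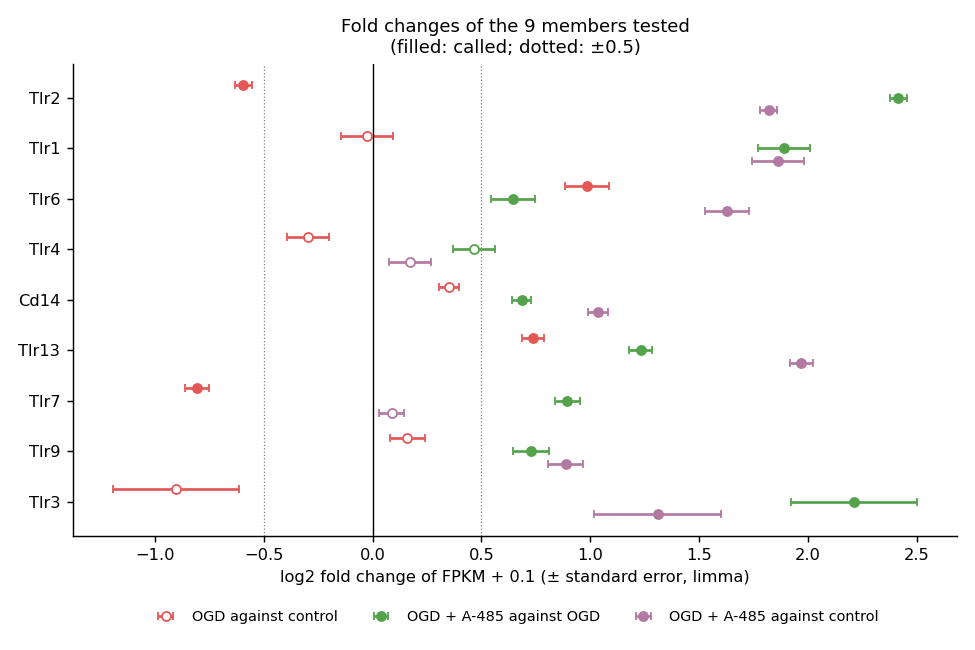
Log2 fold change of FPKM + 0.1 with its limma standard error (x axis) for the 9 members tested (y axis) in the 3 comparisons, where filled points are called and dotted lines mark ±0.5. The OGD + A-485 against OGD points are all above 0, from 0.47 for Tlr4 to 2.41 for Tlr2, while the OGD against control points run from -0.90 for Tlr3 to 0.99 for Tlr6.

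The lipoprotein receptors rose most among the surface receptors. Tlr2 reached 47.9, 47.6 and 47.1 FPKM in OGD + A-485, 5.38 times its mean in OGD. Its log2 fold change was 2.41 (SE 0.04, adjusted p = 3.46e-09), and the 3 libraries lay within 1 FPKM of each other. Tlr1 reached 14.8, 15.8 and 15.1 FPKM, with a log2 fold change of 1.89 (SE 0.12, adjusted p = 3.07e-06). Tlr6 reached 8.45, 7.64 and 7.74 FPKM, with a log2 fold change of 0.64 (SE 0.10, adjusted p = 0.000671). Tlr6 was therefore called higher in both comparisons, OGD against control and OGD + A-485 against OGD, whereas Tlr1 was called only in the comparison with A-485. The difference between Tlr1 and Tlr6 was not tested.

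The lipopolysaccharide receptor and its co-receptor were the other surface genes. Tlr4 was at 7.07, 8.09 and 7.04 FPKM in OGD + A-485. All 3 values were above OGD, with a log2 fold change of 0.47 (SE 0.10, adjusted p = 0.00331) that stayed just under the fold required for a call. Cd14 reached 221.7, 209.7 and 233.9 FPKM, with a log2 fold change of 0.68 (SE 0.04, adjusted p = 3.59e-06). The ratio of Cd14 to Tlr4 was 30.2 ± 3.80 (SD, n = 3), and its 3 values of 25.9–33.2 overlapped the 22.6–28.3 in OGD.

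All 4 endosomal receptors that could be tested rose with A-485. Tlr13 reached 54.3, 57.8 and 57.6 FPKM, with a log2 fold change of 1.23 (SE 0.05, adjusted p = 3.36e-07). Tlr7 was at 24.1, 24.4 and 23.4 FPKM, with a log2 fold change of 0.89 (SE 0.06, adjusted p = 3.13e-06). These libraries overlapped those of control, at 20.8–24.3 FPKM. Tlr9 was at 22.2, 19.4 and 19.2 FPKM (log2 fold change 0.73, SE 0.08, adjusted p = 8.29e-05), above both other groups. Tlr3 rose to 1.14, 1.14 and 1.05 FPKM (79–94 reads), with a log2 fold change of 2.21 (SE 0.29, adjusted p = 0.000235). That size rests on 6–17 reads per OGD library.

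Tlr8, a relative of Tlr7 that lies beside it, appeared almost only with A-485. It gave 15–20 reads in each OGD + A-485 library, or 0.265–0.387 FPKM, beside 0 reads in control and 1–2 in each OGD library. The 53 reads in OGD + A-485 against 4 in OGD gave a ratio of 11.8 after scaling (95% exact interval 4.34–44.8, for counting error only). The OGD reads behind this ratio lie under the floor of 3 reads per library, so it cannot be compared with the fold against control. With that floor in place of the 0 reads in control, Tlr8 was at least 5.75-fold higher than control. Its level of 0.332 ± 0.0619 FPKM (SD, n = 3) was still below that of every other member in that group. Of the Toll-like receptors that are not members, Tlr5 had 0–4 reads per library, and Tlr11 and Tlr12 were listed at 0 in every library.

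Compared with control, OGD + A-485 left the cells with more RNA of most receptors. Of the 9 members tested, 7 were called higher, against 17.0% of all genes tested, and 0 were called lower, against 16.6%. When the values were scaled to library totals, 2253 genes were called higher and 3349 lower in this comparison, in place of 2747 and 2684. The median log2 fold change of the members was 1.31, beside 0.02 for all genes. Tlr13 (1.97, SE 0.05, adjusted p = 2.18e-08), Tlr1 (1.86, SE 0.12, adjusted p = 1.90e-06), Tlr2 (1.82, SE 0.04, adjusted p = 7.72e-09) and Tlr6 (1.63, SE 0.10, adjusted p = 1.44e-06) had the largest log2 fold changes. Cd14 had a log2 fold change of 1.04 and Tlr9 one of 0.89. Tlr7, at 0.09 (SE 0.06, adjusted p = 0.221), and Tlr4, at 0.17 (SE 0.10, adjusted p = 0.164), were not called, and their libraries overlapped those of control. Tlr7 was therefore lowered by OGD and near its control level with A-485, whereas Tlr13 was higher in OGD than in control and higher again with A-485.

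Summed over each class, the surface receptors (Tlr1, Tlr2, Tlr4 and Tlr6) had 26.6 ± 0.698 FPKM in control (SD, n = 3), which became 23.3 ± 1.31 under OGD and 78.1 ± 1.11 with A-485. The endosomal receptors (Tlr3, Tlr7, Tlr8, Tlr9 and Tlr13) were at 48.3 ± 1.32, 49.3 ± 1.73 and 102.3 ± 0.687 FPKM. In all 9 libraries the endosomal receptors thus held more of the receptor RNA than the surface receptors. The ratio of surface to endosomal FPKM was 0.551 ± 0.00243 for control, 0.472 ± 0.0113 under OGD and 0.764 ± 0.00620 with A-485, and the groups did not overlap. On the log2 scale the ratio fell by 0.22 from control to OGD and was 0.69 higher in OGD + A-485 than in OGD. That shift rested on Tlr2: without it the difference with A-485 was 0.033, and averaged over log2 values per receptor it was -0.0084. The difference with OGD turned to 0.23 without Tlr13, to 0.10 without Tlr2 and to 0.11 when averaged over log2 values.

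The rise with A-485 came to 107.8 FPKM over the 9 receptors, from 72.6 to 180.4 FPKM. Tlr2 made up 35.9% of it, Tlr13 30.2%, Tlr1 10.4%, Tlr7 10.3% and Tlr9 7.49%. By class, 50.9% came from the surface receptors and 49.1% from the endosomal ones. The composition of the receptor RNA changed with it. Tlr7 held 30.1% of the receptor sum in control, 17.7% under OGD and 13.3% with A-485, whereas Tlr13 held 19.2%, 33.1% and 31.4%. Tlr2 held 17.9%, 12.2% and 26.3%.

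The balance of the TLR2 subunits in OGD differed from that in both other groups. There were 2.03 ± 0.246 FPKM of Tlr2 for each FPKM of its partners Tlr1 and Tlr6 together for control, 0.980 ± 0.147 under OGD and 2.05 ± 0.0192 with A-485. The ratio of Tlr1 to Tlr6 was 1.65 ± 0.126, 0.802 ± 0.0590 and 1.92 ± 0.161. For both ratios the OGD libraries stood below all others, while control and OGD + A-485 overlapped. The levels themselves were not those of control, since mean Tlr1, Tlr2 and Tlr6 with A-485 were 3.69, 3.55 and 3.17 times control. The sequence that Tlr1 and Tlr6 share bears on the second of these ratios, since reads moved from one gene to the other would change it, and its part was not tested.

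**Figure D3:**
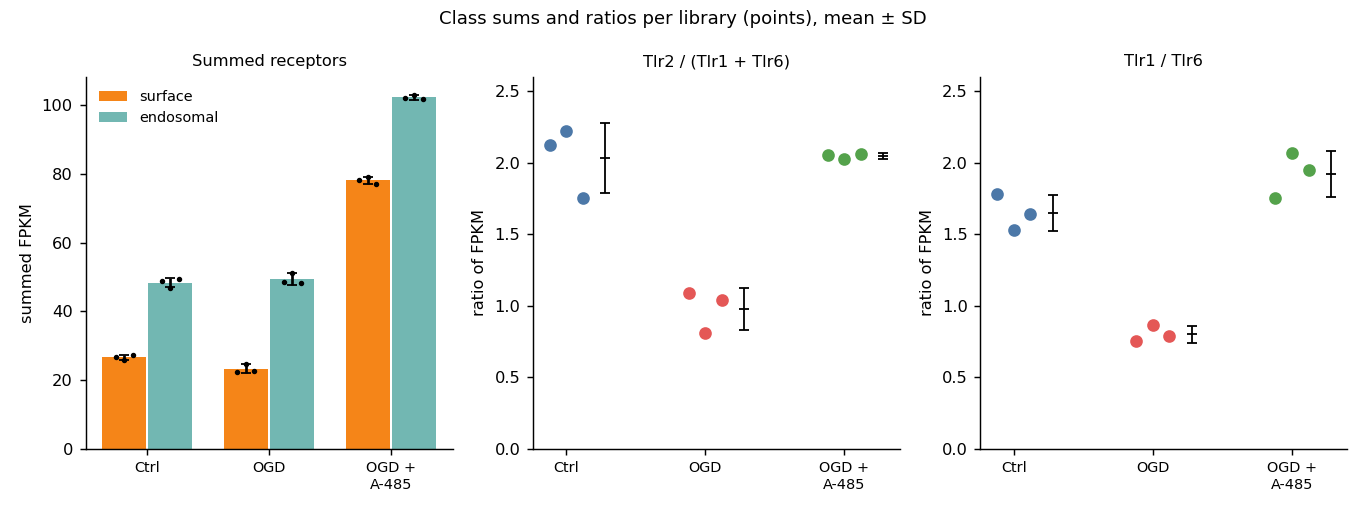
Summed FPKM of the surface and endosomal receptors (bars from 0, mean ± SD, points for the 3 libraries of each group), and the FPKM ratios of Tlr2 to Tlr1 plus Tlr6 and of Tlr1 to Tlr6 in each library with mean ± SD. Both sums are largest in OGD + A-485, and both ratios are lowest in OGD, where the ratio of Tlr1 to Tlr6 is 0.802 ± 0.0590.

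The proteins that serve these receptors were followed in a list of 58 partner genes, of which 52 could be tested. OGD raised 7 and lowered 2 of the 52 (13.5% and 3.85%, beside 11.2% and 9.81% of all genes), so that the share raised was near the background. A-485 during OGD raised 17 and lowered 4 (32.7% and 7.69%, beside 12.2% and 13.4% of all genes). In OGD + A-485 against control, 26 were higher and 4 lower (50% and 7.69%, beside 17.0% and 16.6% of all genes). The median log2 fold changes of the partners were 0.13, 0.27 and 0.50 in these comparisons.

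Among the accessory proteins of the surface receptors, A-485 raised 3 of 5 and lowered 1 (60% and 20%, beside 12.2% and 13.4% of all genes). Cd36, a scavenger receptor that passes ligands to TLR2 and TLR6, went from 2.91 ± 0.472 to 11.5 ± 1.25 FPKM (log2 fold change 1.95, adjusted p = 5.23e-06). Cd180 and its partner Ly86, a pair related to TLR4 and MD-2, had log2 fold changes of 0.90 and 0.82. Lbp, the lipopolysaccharide-binding protein that loads CD14, fell by 0.81 on the log2 scale. Ly96, which encodes MD-2 and was named after its values were seen, was not called with A-485 against OGD (log2 fold change 0.43, adjusted p = 0.0541). None of the 5 was called with OGD against control, beside 11.2% of all genes called higher and 9.81% called lower.

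Among the accessory proteins of the endosomal receptors, A-485 raised 6 of 11 and lowered 0 (54.5% and 0%, beside 12.2% and 13.4% of all genes). The cysteine protease genes Ctss and Ctsb, whose products can cleave endosomal receptors into their active form, went from 137.4 ± 7.73 to 380.3 ± 16.9 FPKM and from 237.4 ± 6.18 to 555.6 ± 10.9 FPKM. Pld4, a nuclease of the endolysosome, went from 41.1 ± 0.991 to 103.3 ± 5.66 FPKM. Unc93b1 was at 46.0 ± 1.07 FPKM in OGD and rose to 79.1 ± 3.95 FPKM (log2 fold change 0.78, adjusted p = 1.21e-06). Under OGD alone Pld3, a nuclease related to Pld4, rose by 0.99 and Ap3b1, a subunit of a vesicle-sorting complex, by 0.52 on the log2 scale, and Hsp90b1, the chaperone of the receptors, fell by 0.65.

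Of the 5 adaptors tested, OGD raised 2 and lowered 1 (beside 11.2% and 9.81% of all genes), and A-485 raised 1 and lowered 0 (beside 12.2% and 13.4% of all genes). Myd88, the adaptor of every member receptor except TLR3, was at 31.8 ± 0.706 FPKM for control, 15.6 ± 0.809 under OGD and 18.2 ± 0.935 with A-485. It fell by 1.03 on the log2 scale under OGD (adjusted p = 1.83e-06) and was not called between OGD and OGD + A-485 (0.22, adjusted p = 0.00678). Ticam1, which encodes the TLR3 and TLR4 adaptor TRIF, rose by 0.87 and Pik3ap1 by 0.91 under OGD. Ticam2, which links TLR4 to TRIF, was the 1 of 5 adaptors called with A-485, from 1.28 ± 0.236 to 3.15 ± 0.206 FPKM. Of the 16 kinases and ubiquitin ligases tested, A-485 raised Irak4 (0.53) and lowered Chuk (-0.78) and Ikbkb (-0.68), which encode the catalytic subunits of the IkB kinase. These shares, 6.25% and 12.5%, were not above the 12.2% and 13.4% of all genes. Of the 5 interferon regulatory factors A-485 raised Irf1 (0.84), or 20%, beside 12.2% of all genes.

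Among the inhibitors of Toll-like receptor signalling, A-485 raised 5 of 10 and lowered 1 (50% and 10%, beside 12.2% and 13.4% of all genes). Irak3, a kinase-like protein that holds back signalling at the receptor, had 6, 9 and 12 reads in control, 8, 2 and 5 reads under OGD and 829, 932 and 822 reads with A-485. Its level of 15.7 ± 0.336 FPKM there compared with 0.165 ± 0.0401 in control and 0.103 ± 0.0648 in OGD, both under the 0.2 FPKM filter. Irak3 was tested only through its level with A-485 and so had to differ. That puts it among the 5 inhibitors and the 17 partners raised, and among the 26 partners higher in OGD + A-485 than in control. Trim30a went from 0.731 ± 0.248 to 6.47 ± 0.425 FPKM with A-485, and close paralogs make its count uncertain. Tnfaip3, the ubiquitin-editing enzyme A20, rose under OGD from 2.50 ± 0.157 to 10.1 ± 0.407 FPKM and again with A-485 to 14.8 ± 0.397 FPKM. Sigirr, named after its values were seen, was the inhibitor that A-485 lowered, from 8.35 ± 0.902 to 3.79 ± 0.476 FPKM.

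**Figure D4:**
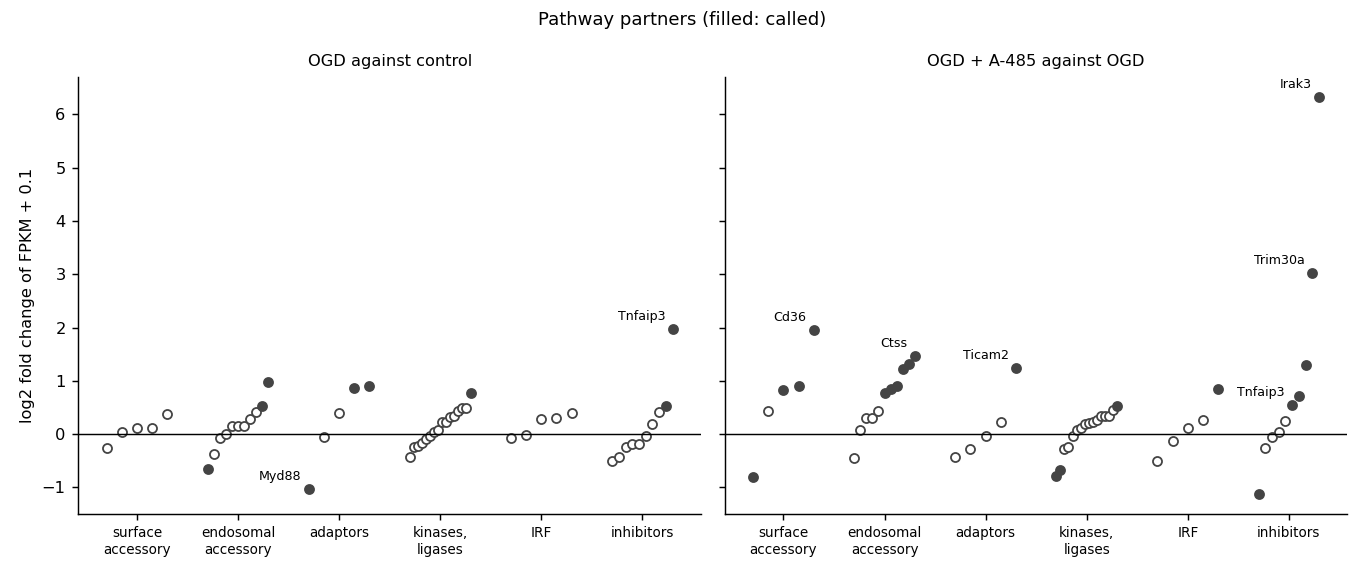
Log2 fold change of FPKM + 0.1 (y axis) of the 52 partner genes tested, by group of partners (x axis) and ordered by size within each, for OGD against control and for OGD + A-485 against OGD, with called genes filled. Irak3, which was tested only through its level with A-485 and so had to differ, stands highest in the right panel. Myd88 is lowest in the left one at -1.03.

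Of 10212 annotated genes (without predicted or clone-named genes) that averaged 1 FPKM or more, those whose centred log2 levels lay nearest to a member over the 9 libraries were as follows, with the Euclidean distance as the measure of likeness. The nearest gene was Rpgrip1 for Tlr1 (0.254), Sla for Tlr2 (0.266), Pomk for Tlr4 (0.172), Mcub for Tlr6 (0.280), Zfp568 for Tlr7 (0.208), Ap5b1 for Tlr9 (0.179), Rnf13 for Tlr13 (0.154) and Gabarap for Cd14 (0.105). The gene next nearest to Cd14 was Unc93b1 (0.148). Sla, which encodes an adaptor that dampens receptor signalling, had log2 fold changes of -0.49 with OGD and 2.28 with A-485, beside -0.59 and 2.41 for Tlr2. Rnf13, an endolysosomal ubiquitin ligase, had 0.74 and 1.31, beside 0.74 and 1.23 for Tlr13. No nearest gene was another Toll-like receptor.

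The chromosomal surroundings of the members were also measured. The median log2 fold change of the 50 genes nearest on the chromosome ranged from -0.28 around Tlr9 to 0.27 around Tlr2 with A-485 against OGD. With the neighbours' median removed, the log2 fold changes were 2.14 for Tlr2 and 1.007 for Tlr9, and both stayed called.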

How the data were processed

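Total RNA of BV2 cells was sequenced in 9 libraries, 3 each of control, OGD and OGD + A-485, grouped by their titles. The authors counted reads per gene with featureCounts and deposited FPKM, computed from the read count and gene length, on GRCm38. The treatment of reads that match several genes, the strand setting and the aligner are not given in the sources used here. Recovery of whole reads from the FPKM succeeded for 100% of the values within a tolerance of 0.05, and 1 read on 1 kb was worth 0.0618–0.0786 FPKM.

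Genes averaging 0.2 FPKM or more over all libraries (16123 genes) were put on the log2(FPKM + 0.1) scale. A linear model with 1 coefficient for each group and a trended prior variance was fitted to the 9 libraries in limma (version 3.58.1, R version 4.3.3). The study tested counts, which is not repeated here, and its cut-off (p under 0.01, absolute log2 fold change over 0.5) was kept, and Benjamini-Hochberg adjusted p-values over all genes tested are given beside. The script was tested on simulated data. Means, ratios and sequence searches used numpy 2.4.6, scipy 1.17.1, pandas 2.3.3 and, for plots, matplotlib 3.10.9 under Python 3.11.15. Differences of sums and ratios carry no test.

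Named in the text are all members, at most 3 called partners per group of partners and comparison, ordered by fold change, and the genes nearest to each member in pattern. Genes outside this rule are said to be named after their values were known. The members and lists were chosen with earlier results of these data known. Alternatives were other pseudocounts, filters, scalings, thresholds and fits, a replicate block and leaving out each library. The labels do not say that a replicate number marks a shared culture or day, so no block was used. Deviations of same-numbered libraries from their group means correlated at -0.0302 on average. The average for different numbers, 0.0151, is tied to that value by the centring within groups and is no separate comparison. No libraries were identical (chi-square per degree of freedom 2.67–5.24 between replicates).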

Additional observations from a re-analysis of the deposited data

How the results depend on the processing

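Over the alternatives in which a member was tested, fold changes of the members kept their direction and their call in 575 cases, gained a call in 12, reversed in 4 and lost a call in 0. With a minimum mean of 1 FPKM, Tlr3 was no longer tested, and the members called higher were 7 in place of 8 with A-485 against OGD and 6 in place of 7 with OGD + A-485 against control. The reversals were in values not called: Tlr1 with OGD against control ranged from -0.15 to 0.064 on leaving out each library in turn, above 0 without control replicate 3, OGD replicate 1 or OGD replicate 3, and Tlr7 with OGD + A-485 against control was -0.026 with scaling to library totals. Tlr3 with OGD against control was called under quantile normalization, with limma-voom on recovered reads (-1.31), with no trend in the prior variance, with the median of 50 neighbouring genes removed (-1.01) and without the second OGD library, which made 3 members lower in place of 2. Tlr4 with A-485 against OGD was called under quantile normalization (0.50) and without the second OGD (0.55) or the third OGD + A-485 library (0.50). With an adjusted p under 0.05 and any fold change, 4 members were lower with OGD against control, and the partners called were 29 with OGD against control, 41 with A-485 against OGD and 46 with OGD + A-485 against control. The genes called were then 3624 higher and 3676 lower, 4053 and 3983, and 4553 and 4577 in the same order.

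The log2 difference in the ratio of summed surface to endosomal FPKM depended on single receptors. With OGD against control it was -0.25 under quantile normalization, 0.23 without Tlr13, 0.10 without Tlr2 and 0.11 as a mean of log2 values. With A-485 against OGD it was 0.75, 0.89, 0.033 and -0.0084 in that order, and with OGD + A-485 against control 0.50, 1.12, 0.13 and 0.10. With the replicate block, 8 members were higher with A-485 against OGD, as without it, Tlr2 had the same fold change of 2.41, and no call of a member changed. With no filter on low values, Tlr8 had an adjusted p of 0.000175 with A-485 against OGD (limma, 27669 genes). Depth limits Tlr3 and Tlr8, which rest on 0 to 94 reads per library.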
